A study of Mus musculus with 4 samples.

Results

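A total of 1212 m6A intervals lay in the distal 3′ UTR of mouse brain mRNAs, more than 1000 nt after the stop codon. They were drawn from 23901 shared intervals, each of which is the stretch of bases (1 bp or more) that a peak of m6A immunoprecipitation (IP) replicate 1 and a peak of replicate 2 had in common. The midpoint of every shared interval was placed on the spliced mRNA with the longest coding sequence (CDS) of its gene, and 19751 midpoints fell in exons of 1 gene only. The 1212 distal intervals belonged to 965 genes, of which 773 had 1, 148 had 2, 35 had 3, 7 had 4 and 2 had 5. As single lists, distal peaks of replicate 1 numbered 1901 and those of replicate 2 numbered 1521, so that without replicate 2 the number would be more than 1.5 times as high.

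The study mapped m6A in whole brain of C57BL/6J mice at 4 weeks of age, beside a map of the RNAs bound by the candidate m6A-binding protein Prrc2a, to ask whether it binds RNA that carries the mark. The series text describes the animals as Prrc2a flox/flox, and neither it nor the labels name a Cre driver for them. There were 4 samples, 2 of m6A IP and 2 of input, all from one genotype, one tissue and one age, so that no comparison between conditions was possible. Each IP replicate had its own peak list, with a fold enrichment of IP over input for every peak but no read counts, strand, summit or p-value. The depth of sequencing is therefore unknown here, and values are given for both replicates side by side without a test. All 5 neuronal, 5 oligodendrocyte and 5 microglial marker mRNAs checked had a shared interval somewhere, as did 4 of 5 astrocyte and 2 of 3 endothelial markers, against 0 of 3 liver and 0 of 3 skeletal muscle markers. Of all 21732 representative mRNAs, 9134 had a placed shared interval, so that 0 of 3 is weak evidence by itself.

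N6-methyladenosine is written onto mRNA by a nuclear methyltransferase complex that prefers an adenosine within a short consensus whose core is GGAC, and it is known to be dense around stop codons and in long last exons. The 3′ UTR beyond the stop codon carries much of the regulatory sequence of an mRNA, including microRNA sites, AU-rich elements and signals for transport into dendrites and axons. Brain mRNAs are known for long 3′ UTRs, and proteins that recognise m6A there can alter the stability, translation or localisation of the message.

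To show what the mark's consensus looked like this far from the stop codon, the GGACT nearest to the interval midpoint is given for 3 of the 10 most enriched distal intervals (Rassf4, Klhl25 and Primpol), for 5 synaptic, channel, phosphatase and ubiquitin genes, and for Strbp, one of the farthest. GGACT is in capitals, with 10 nt of the mRNA on either side, 5′ to 3′ with T for U, and coordinates are of mm10.
Rassf4, chr6:116636647-116636671, minus strand: acacaagaaaGGACTcactggtggt
Klhl25, chr7:75874002-75874026, plus strand: cctggcctgtGGACTatgccatctg
Primpol, chr8:46576376-46576400, minus strand: gcagtaaccaGGACTcacctttccc
Erc1, chr6:119572526-119572550, minus strand: attaacactgGGACTggcttggcac
Gabbr1, chr17:37074189-37074213, plus strand: atggacagatGGACTgaccgggcgg
Scn8a, chr15:101045560-101045584, plus strand: agtattctttGGACTtgaggaagag
Ppp2r2c, chr5:36954659-36954683, plus strand: ggttcagagcGGACTgctaataata
Usp46, chr5:74000462-74000486, minus strand: ggtgaaaactGGACTccttatttct
Strbp, chr2:37570075-37570099, minus strand: ctgcatgtgtGGACTatcatcagtg
The adenosine of the motif was 7 nt from the midpoint in Erc1, 10 nt in Usp46, 14 nt in Ppp2r2c and 15 nt in Strbp, but 198 nt in Rassf4. The distance from the midpoint thus differed widely between these mRNAs. The lists give intervals and not single bases, and they do not say which adenosine carried the mark.

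The distal intervals were placed over a wide range of the 3′ UTR. Their midpoints lay a median of 1784 nt after the stop codon (quartiles 1301 and 2641 nt, farthest 17135 nt), on 3′ UTRs with a median length of 3092.5 nt, and thus at a median of 68.7% of the way to the annotated end. A total of 437 lay within 1500 nt of the stop codon, 273 between 1501 and 2000 nt, 270 between 2001 and 3000 nt, 183 between 3001 and 5000 nt and 49 farther out. The intervals had a median length of 301 nt (range 1 to 2367 nt), and 11 were shorter than 100 nt. They came from 1189 replicate 1 peaks and 1184 replicate 2 peaks, since 100 intervals shared a peak of one replicate with another distal interval. On each side of the 1000 nt limit the values were close: the 98 intervals at 1001 to 1100 nt had median fold enrichments of 2.95 and 2.37 in replicates 1 and 2, and the 122 at 901 to 1000 nt had 2.91 and 2.45.

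The distal intervals were also described by other features of the annotation. The same annotation had placed them, so that these counts are no independent check of the placement. A total of 1210 lay in the last exon. While 1030 lay wholly beyond 1000 nt, 182 reached inside that limit, and 0 reached the stop codon. In other coding transcripts of the same gene, 3 fell in coding sequence and 28 within 1000 nt of a stop codon. The peak lists give no strand, and 32 intervals also lay in an exon of another gene, 28 of them on the opposite strand. Without those 32 the medians of 2.86 and 2.34 became 2.85 and 2.34. Some 3′ UTRs are annotated in a short and a long form, and 337 of the intervals (27.8%) lay past the end of a shorter coding transcript with the same stop codon. If midpoints were spread evenly over the distal 3′ UTR of their own mRNA, that share would be 29.4%, close to the observed one.

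Shared intervals thinned out with distance from the stop codon. In all mRNAs that held a shared interval, the distal 3′ UTR carried 139 intervals per Mb (95% Poisson interval 132 to 147). The stretch beyond the first 200 nt and up to 1000 nt carried 397 (380 to 414), the first 200 nt carried 1364 (1310 to 1420) and the CDS 662 (650 to 674). The CDS here has 12194 intervals and includes its last 200 nt. Below, those count as stop codon intervals, which leaves 10054 in the CDS. Within the distal 3′ UTR the density fell in each successive step, from 214 per Mb at 1001 to 1250 nt (189 to 242) through 130 at 2001 to 2500 nt (110 to 151) to 65.7 at 5001 to 7000 nt (45.2 to 92.2) and 35.9 beyond 7000 nt (20.5 to 58.2). The intervals cover counting error only and treat shared intervals as independent.

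**Figure D1:**
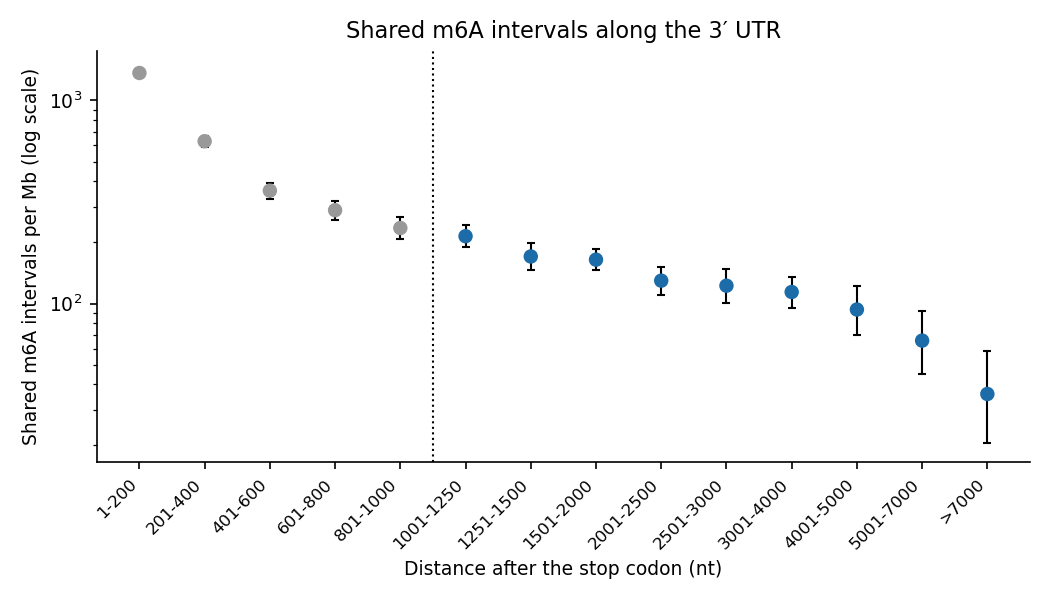
Shared m6A intervals per Mb of 3′ UTR (log scale) by distance after the stop codon in nt, with 95% Poisson intervals; blue points are the distal 3′ UTR, grey points the first 1000 nt, and the dotted line is the 1000 nt limit. The density falls from 1364 per Mb in the first 200 nt to 35.9 beyond 7000 nt, with no break at the limit.

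An mRNA with a longer 3′ UTR held a distal interval more often. It also has more bases beyond 1000 nt in which a midpoint can fall, and the shares here are per mRNA and not per base. Of the 5208 mRNAs that had a shared interval anywhere and a 3′ UTR over 1000 nt, 965 (18.5%) held at least 1 distal interval. The share was 5.05% (95% Wilson interval 4.01 to 6.35) for 3′ UTRs of 1001 to 1500 nt, 16.6% (14.5 to 19.1) for 1501 to 2000 nt, 21.2% (19.1 to 23.5) for 2001 to 3000 nt, 27.1% (24.5 to 29.8) for 3001 to 5000 nt and 35.7% (31.3 to 40.3) beyond 5000 nt. Towards the annotated end, 429 intervals (35.4%, 32.8 to 38.1) had their midpoint in the last 500 nt, against 33.0% for an even spread over their own mRNAs. In the last 200 nt the share was 9.41% (7.89 to 11.2) against 14.3%, and in the last 100 nt it was 1.16% (0.689 to 1.93) against 7.20%. The shortest peak of either list was 200 nt, and the part of peak length in these shares was not tested.

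Most of these mRNAs also carried m6A elsewhere. A stop codon interval, with its midpoint within 200 nt of the stop codon, was present in 405 of the 965 mRNAs (42.0%, against 47.9% of all 5208). A proximal 3′ UTR interval, beyond 200 and up to 1000 nt, was present in 347 (36.0% against 27.5%), and a CDS interval in 489 (50.7% against 57.2%). In 118 genes every shared interval was distal, and in 99 of them there was a single one. Where an mRNA held several distal intervals, neighbouring midpoints were a median of 833 nt apart (quartiles 589 and 1228 nt).

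The enrichment of the distal intervals lay in the middle of the range over the mRNA. Their median fold enrichment was 2.86 (quartiles 2.15 and 3.81) in replicate 1 and 2.34 (1.90 and 2.92) in replicate 2, and that of all placed intervals was 3.03 and 2.32. Stop codon intervals had medians of 3.29 and 2.51, proximal 3′ UTR intervals 3.19 and 2.53, CDS intervals 2.998 and 2.23, and 5′ UTR intervals 2.67 and 2.10. The distal median was thus below that of the stop codon and proximal regions in both replicates, and against the CDS it was lower in replicate 1 and higher in replicate 2. Replicate 1 had the higher value in 905 of the 1212 (74.7%, against 78.5% of all placed intervals).

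**Figure D2:**
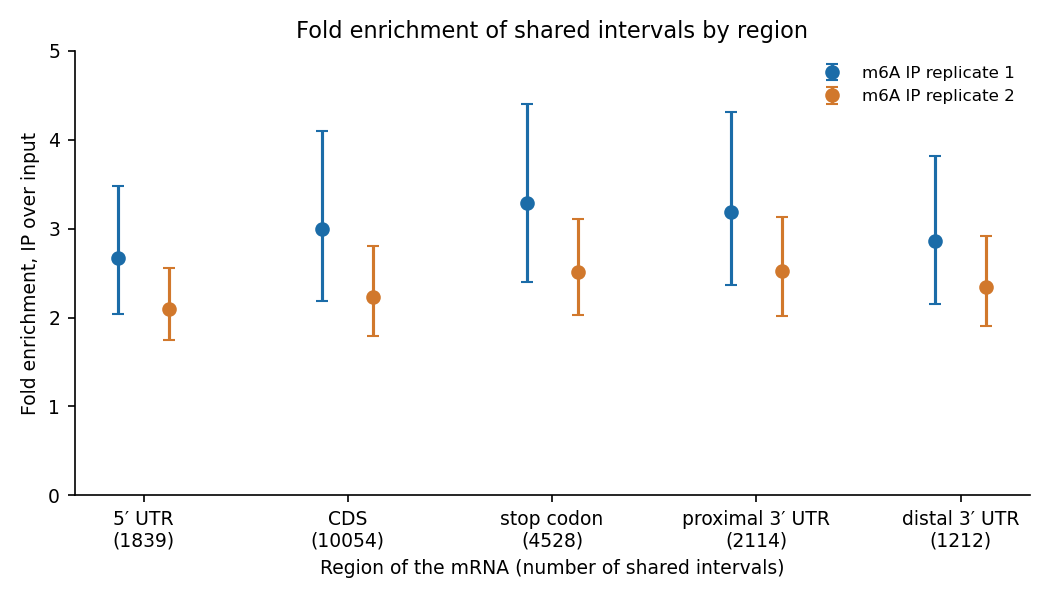
Fold enrichment of IP over input for shared intervals by region of the mRNA, with the number of intervals under each name; points are medians over intervals and bars run from the lower to the upper quartile, blue for replicate 1 and orange for replicate 2. The distal 3′ UTR medians, 2.86 and 2.34, sit below those of the stop codon (3.29 and 2.51), with wide overlap of the quartiles.

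Both replicates gave a value of 2 or more for 780 distal intervals (64.4%, 95% Wilson interval 61.6 to 67.0), near the 62.5% of all placed intervals. The share was 70.4% in the proximal 3′ UTR, 71.9% at the stop codon, 58.8% in the CDS and 49.8% in the 5′ UTR. A value of at least 4 in both was reached by 40 (3.30%, against 3.24% of all placed intervals), and 161 were under 2 in both. Across the 1212 intervals the values of the replicates had a Spearman correlation of 0.594, against 0.617 over all 19751. It is a description over intervals from a single pair of IP and input libraries per replicate, and intervals of one mRNA share its input. Enrichment showed no steady order with distance: the medians were 2.97 and 2.39 at 1001 to 1250 nt, 2.56 and 2.30 at 3001 to 4000 nt and 3.08 and 2.54 for the 16 intervals beyond 7000 nt.

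Whether a distal peak of one list had a partner in the other was set beside the other regions. Of the 1901 distal peaks of replicate 1, 1154 (60.7%, 58.5 to 62.9) overlapped a replicate 2 peak, and of the 1521 of replicate 2, 1155 (75.9%, 73.7 to 78.0) overlapped a replicate 1 peak. Over the whole lists, which include peaks outside the mRNAs, the shares were 60.0% and 77.0%. Over all placed peaks they were 69.5% (69.0 to 70.1) and 77.5% (76.9 to 78.0). In the CDS they were 66.6% and 73.8%, and in the 5′ UTR 66.7% and 73.5%, so that the distal share was the lowest of the 5 regions in replicate 1 and lay above these others in replicate 2. In the proximal 3′ UTR they were 77.0% (75.4 to 78.6) and 85.3% (83.9 to 86.7), outside the intervals of the distal shares in both lists, and at the stop codon 77.8% and 85.5%. In replicate 1 the share was 64.3% at 1001 to 1500 nt, 65.0% at 1501 to 2000 nt and 61.4% at 2001 to 3000 nt. It was 54.3% at 3001 to 5000 nt and 41.7% (33.1 to 50.9) for the 115 peaks beyond 5000 nt. In replicate 2 it was 76.9%, 76.3%, 73.4% and 80.0% (74.2 to 84.8) over the same ranges up to 5000 nt. For the 68 peaks beyond 5000 nt it was 67.6% (55.8 to 77.6). From 2001 nt on the share fell with each range in replicate 1, while in replicate 2 it rose at 3001 to 5000 nt. Distal peaks without a partner had lower medians than those with one, 2.45 against 2.83 in replicate 1 and 1.93 against 2.32 in replicate 2.

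Within single mRNAs the distal interval could be set against the stop codon interval of the same mRNA model. Transcripts that end before the distal interval carry the stop codon alone, and the input level of each was not in the lists. In the 405 mRNAs with both, the strongest distal interval exceeded the strongest stop codon interval in 151 (37.3%, 32.7 to 42.1) in replicate 1 and in 167 (41.2%, 36.5 to 46.1) in replicate 2. The median ratio of distal to stop codon enrichment was 0.842 and 0.935. The distal interval was higher in both replicates in 96 mRNAs and lower in both in 177, the replicates differed in direction in 123, and both intervals had the same value in a replicate in 9. At 1.5-fold or more in both replicates, 19 mRNAs had the higher value in the distal 3′ UTR and 53 at the stop codon. An mRNA can hold several distal intervals, which can raise the distal maximum. With the mean log2 fold enrichment of each region in place of the strongest interval, the distal value was higher in 34.6% and 38.0%. Against the strongest proximal interval (347 mRNAs) the distal one was higher in 36.0% and 39.8%, and in 58 of them both had the same value in a replicate. Against the strongest CDS interval (489 mRNAs) it was higher in 35.8% in replicate 1 but 50.3% in replicate 2, so that the replicates gave no single picture there.

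The mRNAs with the largest excess of distal over stop codon enrichment included genes of signalling and vesicle release. Dusp3, a protein phosphatase, had 5.51 distally and 1.78 at the stop codon in replicate 1, and 3.35 and 1.56 in replicate 2. Unc13b, which primes synaptic vesicles for release, had 4.14 and 1.40, then 3.58 and 1.75. In both mRNAs the distal value was more than 2 times the stop codon value in both replicates. Klhl2, an adaptor of a cullin ubiquitin ligase, had ratios of 1.99 and 2.12, and Tbc1d24, a regulator of synaptic vesicle trafficking, 2.82 and 1.93.

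At the other end the stop codon interval was the stronger. Fbxw7, the substrate receptor of an SCF ubiquitin ligase, had 1.98 distally and 5.65 at the stop codon in replicate 1, and 1.72 and 5.13 in replicate 2. Wipi2, which acts in autophagosome formation, had 1.56 and 4.47, then 1.56 and 3.95. Srcin1, a neuronal inhibitor of Src kinase, had 2.18 and 5.21, then 1.87 and 4.34. In all 3 the stop codon value was more than 2 times the distal value in both replicates. Retreg3, a receptor for turnover of the endoplasmic reticulum, and B230219D22Rik had ratios between 0.289 and 0.384.

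**Figure D3:**
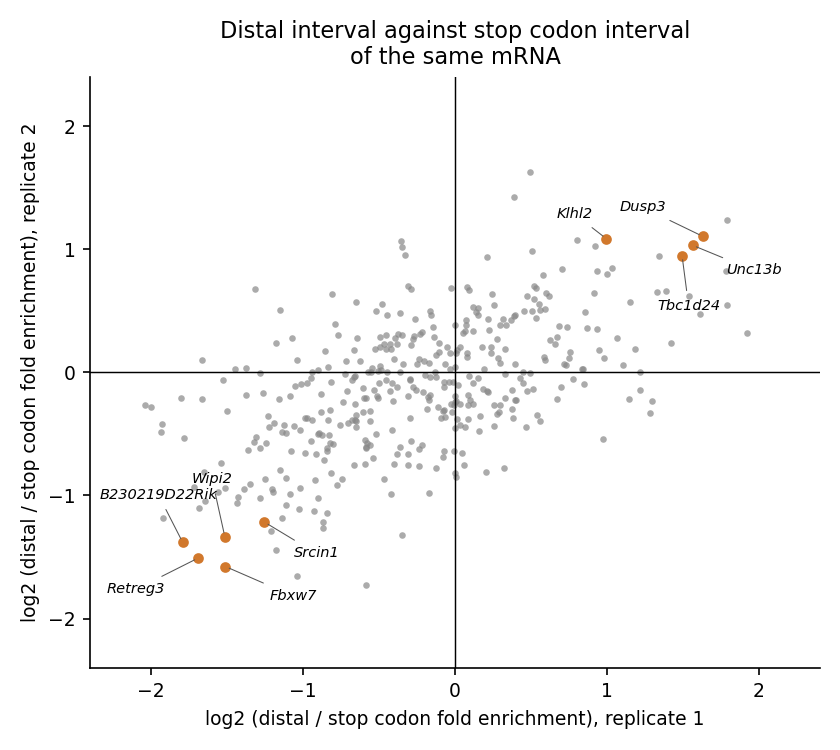
Each point is 1 of the 405 mRNAs with both a distal and a stop codon interval; the axes give the log2 ratio of the strongest distal to the strongest stop codon fold enrichment in replicate 1 (horizontal) and replicate 2 (vertical), with the mRNAs named in the text in orange. The lower left holds 177 mRNAs and the upper right 96, while 123 differ in direction between the replicates and 9 lie on an axis.

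The most enriched distal intervals, ranked by the lower of both values, were found in genes of diverse function. Peg10, an imprinted gene derived from a retrotransposon, led with 6.51 in replicate 1 and 6.40 in replicate 2, at 1618 nt after the stop codon (chr6:4758702-4759014). Xpo7, a nuclear transport receptor, had 6.89 and 5.82 at 6437 nt on a 3′ UTR of 11755 nt. Rassf4, a Ras-association domain protein, had 5.50 and 5.67 at 1777 nt. The replicates were close in Peg10 and Rassf4 and differed by about 1 unit in Xpo7.

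Klhl25, an adaptor of a cullin ubiquitin ligase, had 5.48 and 5.13 at 1298 nt, only 160 nt from its annotated end. Primpol, a primase and DNA polymerase, had 4.92 and 6.39, and Mob3c, of the MOB kinase activator family, 4.98 and 5.71. Tent4a, a non-canonical poly(A) polymerase, had 5.58 and 5.01. Replicate 2 was thus the higher in Rassf4, Primpol and Mob3c, against the general order of the lists. Ddr2, a collagen receptor kinase, had 6.55 and 5.03, and Htr4, a serotonin receptor, 8.35 and 5.03. The replicate 2 value of Ddr2 and Htr4 was the same to the last digit in 17 peaks of that list, and the replicate 1 value of Htr4 in 3. Among all distal intervals, 246 in replicate 1 (20.3%) and 476 in replicate 2 (39.3%) had a value that occurred more than once in its list, against 34.1% and 41.1% of all peaks. Of the 10 strongest intervals, 5 held a GGACT, Peg10, Tent4a and Mob3c held GGAC without GGACT, and Xpo7 and Ddr2 held neither. These counts are near the shares over all distal intervals, 45.7% with GGACT and 79.0% with GGAC (GGACT included).

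The mRNAs with the most distal intervals had 3′ UTRs from 2947 to 18865 nt. Aak1, a kinase of the clathrin adaptor in endocytosis, had 5 on a 3′ UTR of 15925 nt. Their enrichment was 4.01 and 4.50 at 1743 nt, 5.13 and 3.04 at 9335 nt, 5.35 and 3.04 at 10334 nt, 1.83 and 3.04 at 10755 nt, and 3.06 and 1.77 at 15571 nt. The middle 3 shared 1 replicate 2 peak, so that only replicate 1 resolved them.

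Grik3, a kainate receptor subunit, also had 5, on a 3′ UTR of 6082 nt, with 4.18 and 3.43 at 1945 nt, 2.39 and 3.15 at 3588 nt, 1.95 and 3.15 at 4080 nt, 1.68 and 2.07 at 4665 nt and 2.50 and 1.98 at 5725 nt. Grin2b, an NMDA receptor subunit with the longest host 3′ UTR (18865 nt), had 4 at both ends of it. At 1378 and 1964 nt a single replicate 1 peak of 4.67 spanned replicate 2 peaks of 2.16 and 3.22, while at 16241 nt the values were 2.77 and 2.06 and at 17135 nt 2.20 and 2.02. Between 1964 and 16241 nt it held no shared interval with a placed midpoint. Ankrd63, with a 3′ UTR of 3163 nt, had 4, from 3.43 and 2.06 at 1184 nt to 3.76 and 2.81 at 2985 nt, and Fam210b (2947 nt) had 4, all between 1.85 and 3.09. Neighbouring intervals had the same value in Grik3 (3.15, replicate 2), Ankrd63 (4.55, replicate 1) and Fam210b (2.05, replicate 2). Such pairs can come from 1 peak of that replicate, as in Aak1 and Grin2b.

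With 1 interval counted for each gene, the farthest after Grin2b and Aak1 were those of Strbp, Gabrb1 and Kcnk9. Strbp, an RNA-binding protein of the double-stranded RNA-binding family, had 5.45 and 3.95 at 13958 nt, 204 nt before the annotated end, where 4 GGACT motifs fell within 365 nt. Gabrb1, a GABA-A receptor subunit, had 1.87 and 2.42 at 11873 nt. Kcnk9, a leak potassium channel, had 3.74 and 1.92 at 9053 nt. Of these 3 genes, Strbp was the one with more than 3 in both replicates at its farthest interval.

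**Figure D4:**
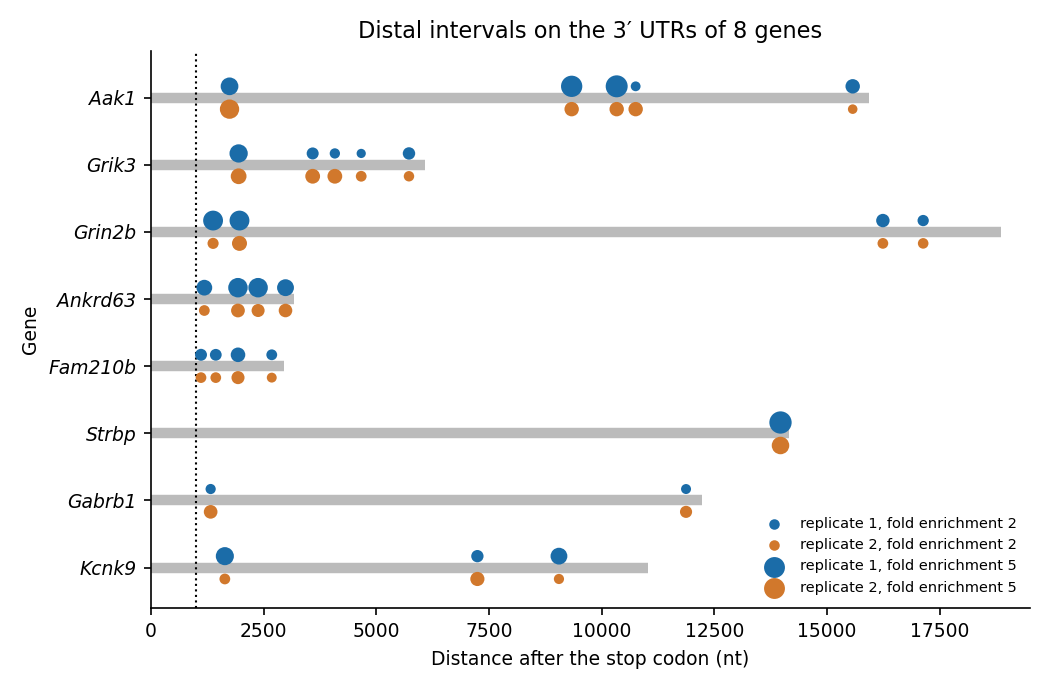
The 3′ UTRs of the 8 genes with the most or the farthest distal intervals (grey bars, from the stop codon, in nt), with each distal interval drawn at its midpoint; the size of a dot grows with fold enrichment, blue above the bar for replicate 1 and orange below for replicate 2, and the dotted line is the 1000 nt limit. Grin2b has pairs of intervals at 1378 and 1964 nt and at 16241 and 17135 nt with none drawn between, and Strbp has 1, at 13958 nt.

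The GGACT motif was more frequent around distal midpoints than over the distal 3′ UTR of the same mRNAs. In windows of 101 nt centred on the midpoint, 242 of 1212 (20.0%, 95% Wilson interval 17.8 to 22.3) held GGACT on the strand of the mRNA. Among all 101 nt windows of the distal 3′ UTR of the same mRNAs 9.60% did, 10.9% when each window share was averaged over the members' own mRNAs, and 8.24% in all such 3′ UTRs. On the opposite strand the share was 7.67% at the midpoints against 8.68% averaged over their own mRNAs. The share at distal midpoints was close to those at the proximal 3′ UTR (19.9%) and the stop codon (20.2%), and above that in the CDS (12.9%).

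The shorter core GGAC was present in 45.8% of the windows (43.0 to 48.6) against 30.1% in their own mRNAs, with 26.4% against 29.1% on the opposite strand. Windows with GGACT are among those with GGAC. Of the variants, GGACA was present in 18.7% against 12.2%, AGACT in 17.2% against 11.7%, GAACT in 14.1% against 10.2%, GGACC in 11.8% against 8.97% and TGACT in 13.4% against 11.5%. Other 3′ UTR elements were less frequent at the midpoints than in their own mRNAs: the AU-rich pentamer ATTTA was found in 5.53% (4.38 to 6.96) against 10.8%, the Pumilio-type motif TGTANATA in 0.908% (0.508 to 1.62) against 1.88%, and the polyadenylation hexamer AATAAA in 2.56% (1.81 to 3.61) against 5.23%, each on the strand of the mRNA. The windows were 51.2% G and C, against 45.6% of the distal bases of the same mRNAs, and the part of base composition in these shares was not tested. A match of letters is not a methylated site.

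**Figure D5:**
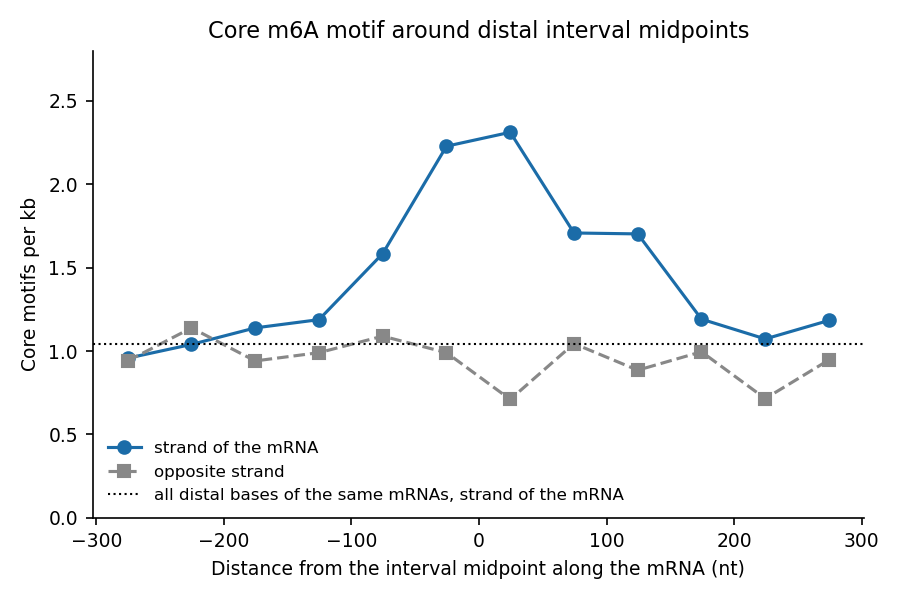
Motifs GGACT per kb in steps of 50 nt from the midpoints of the 1212 distal intervals, by distance along the mRNA in nt; blue is the strand of the mRNA, grey the opposite strand, and the dotted line the rate over all distal bases of the same mRNAs (1.04 per kb). The rate is 2.23 and 2.31 per kb on either side of the midpoint and about 1 per kb beyond 200 nt, while the opposite strand stays between 0.710 and 1.14.

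Counted over the whole interval, GGACT was present in 554 of the 1212 (45.7%), with 1 copy in 367 and more in 187, and GGAC in 958 (79.0%). The 554 with GGACT had median fold enrichments of 3.08 and 2.51, and the 658 without had 2.71 and 2.21. They were also longer, with a median of 353 nt against 273 nt, so that length and enrichment moved together with the motif. In windows of fixed length, GGACT was present in 21.9% of the upper and 18.0% of the lower part of the intervals, divided at the median of the lower fold enrichment.

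Gene lists drawn up by function were read against the 18.5% of all 5208 mRNAs with a distal interval, each list counted over its mRNAs with a 3′ UTR over 1000 nt and a shared interval anywhere. A second value, the share from length, is the share of all mRNAs in the same 3′ UTR length class, averaged over the list. The lists were chosen with earlier results of these data known, so that their shares describe these lists only. The genes named from a list are among its strongest by the lower fold enrichment, so that high values for them follow from that choice. Voltage-gated channel subunits had the highest share, 17 of 27 (63.0%, 44.2 to 78.5), with 25.3% from length. For Kcna6, a potassium channel subunit, the interval at 3290 nt (chr6:126708305-126708771) had 5.24 and 4.27. Its other interval, at 2764 nt (chr6:126735122-126736021), had 3.48 and 3.42. An intron of the 3′ UTR in this mRNA model lies between them, so that the distance of 3290 nt rests on that splice. Scn8a, a sodium channel of the axon initial segment and nodes, had 4.75 and 3.38 at 4791 nt. Kcnh1, another potassium channel, had 4.12 and 3.32 at 3578 nt. The 25 intervals of the list had medians of 2.94 and 2.61, against 2.86 and 2.34 for all distal intervals. The levels of the mRNAs were not in the files used here, so that abundance could not be set beside any of these shares.

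Genes of the synapse were read in the same way. Of the presynaptic release genes, 15 of 30 (33.2 to 66.8%) had a distal interval, with 20.4% from length. Erc1, an active zone scaffold, had 5.24 and 3.21 at 3094 nt, and Rab3c, a vesicle GTPase, 3.46 and 2.70 at 6697 nt. Rims4, of the active zone RIM family, had 4.67 and 2.23. The 22 intervals of the list had low medians all the same, 1.93 and 1.88. Postsynaptic density scaffolds had 8 of 16 (28.0 to 72.0%), with 18.5% from length and medians of 2.26 and 1.82. Iqsec1, an exchange factor for ARF GTPases, had 4.22 and 3.21, and Shank1, a master scaffold of the postsynaptic density, 3.38 and 2.81.

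Of the mRNAs known to be transported into dendrites or axons, 6 of 11 (54.5%, 28.0 to 78.7) had a distal interval, among them Camk2a, the kinase of synaptic plasticity, with 2.85 and 2.14 at 1326 nt, and Ddn, the dendritic protein dendrin, with 2.63 and 2.04 at 1023 nt. The 6 intervals of that list had medians of 2.29 and 2.09. Its share from length was 19.3%, and its Shank1 interval is also counted among the postsynaptic density scaffolds. Glutamate and GABA receptor subunits had 7 of 21 (33.3%, 17.2 to 54.6), near the 25.9% from length. Gria1, an AMPA receptor subunit, had 4.17 and 3.18 at 2016 nt, and Gabbr1, a subunit of the metabotropic GABA receptor, 4.06 and 2.83 at 1154 nt. The 16 intervals of the receptor list had lower medians, 2.30 and 2.29. Kinases and phosphatases of neuronal signalling had 10 of 29 (34.5%, 19.9 to 52.7) against 22.8% from length. Prkce, a protein kinase C, had 4.50 and 3.81 at 1047 nt, and Ppp2r2c, a regulatory subunit of protein phosphatase PP2A, 4.71 and 3.43 at 2015 nt.

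Cytoskeleton and motor genes had 9 of 26 (34.6%, 19.4 to 53.8) against 19.1% from length. Clasp1, which binds microtubule plus ends, had 5.44 and 3.15, and Kif3b, a kinesin motor subunit, 3.51 and 3.08. RNA-binding and translation regulators had 12 of 39 (30.8%, 18.6 to 46.4) against 23.5% from length. Tnrc6c, a partner of Argonaute in microRNA silencing, had 6.59 and 3.94 at 1384 nt with 3 GGACT motifs, and Ago2, the slicing Argonaute, 4.57 and 2.65 at 1230 nt with 3. Ubiquitin ligases and related genes had 7 of 26 (26.9%, 13.7 to 46.1) against 20.6% from length. Usp46, a deubiquitinase, had 3.14 and 2.86.

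Cell adhesion and axon guidance genes had 11 of 49 (22.4%, 13.0 to 35.9), with 20.5% from length. Plxna4, a semaphorin receptor, had 5.67 and 3.20 at 1207 nt, and Nlgn3, a neuroligin, 4.61 and 3.26 at 1719 nt. Transcription and chromatin regulators of neurons had the lowest share, 5 of 38 (13.2%, 5.75 to 27.3), with 20.1% from length. Kmt2a, a histone methyltransferase, had 4.06 and 2.54, and Bcl11b, a zinc finger transcription factor of projection neurons, 3.28 and 2.95. The lists are small, and their intervals are wide for that reason.

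Oligodendrocyte lineage and myelin genes, the cells that the study followed, had 6 of 19 (31.6%, 15.4 to 54.0) against 14.8% from length. Gpr17, a receptor of differentiating oligodendrocyte precursors, had 6.59 and 4.08 at 1622 nt. Tcf7l2, a transcription factor of oligodendrocyte differentiation, had 2.57 and 2.99 at 1067 nt. Opalin, an oligodendrocyte membrane protein, had 2.44 and 2.59 at 1192 nt. Apart from Gpr17 these values were between 2.44 and 2.99. Of 9 genes taken from the study's text, 0 had a distal interval. Prrc2a, Cspg4 and Nes have 3′ UTRs of at most 980 nt and could not have one. Olig2 (3′ UTR 1306 nt, 4 shared intervals), Sox10 (1030 nt, 5), Mbp (1481 nt, 2), Ythdf2 (2012 nt, 3), Fto (2004 nt, 3) and Pdgfra (3101 nt, 2) had shared intervals that all lay elsewhere. The share of all mRNAs with a distal interval was 5.05% in the length class of the first 3, 21.2% in that of Ythdf2 and Fto and 27.1% in that of Pdgfra. The shortest 3′ UTR with a distal interval was 1128 nt, so that the share of its class overstates the room in Sox10. Gfap, the astrocyte filament gene, also appears in that text and is named here after its value was seen. It had a distal interval with 1.73 and 1.39 at 1198 nt.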

How the data were processed

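m6A-seq was performed by the authors on brain mRNA that was fragmented and immunoprecipitated with an anti-m6A antibody. Per the methods of the study and the submitters' processing notes, reads were filtered with Cutadapt and Trimmomatic and aligned to mm10 with TopHat2, and peaks were called with MACS2 for each IP replicate against its own input. No fragment model was used, duplicates were kept and an FDR cutoff was applied; keeping duplicates can raise the enrichment of peaks built on few molecules. The deposited values are peak coordinates and the fold by which IP exceeded input at each peak, a ratio on a linear scale as MACS2 gave it. Replicates were not pooled, and the methods call them biological. Input samples were used only through these ratios.

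Overlaps, with both ends counted, matched bedtools 2.31.1. Transcripts were GENCODE M21 (21732 representative mRNAs, sequences from the same release). Windows were compared with all windows of the same 3′ UTRs, each searched on both strands for GGACT and GGAC and on the strand of the mRNA otherwise. Computations used Python 3.11.15, pandas 2.3.3 and scipy 1.17.1, and placement was checked on simulated intervals. Named genes were the 10 strongest intervals by the lower fold enrichment, 5 genes with the most intervals, 5 farthest, 5 highest and 5 lowest distal to stop codon ratios, up to 4 genes in each of 12 lists, and 9 genes of the study's text. Some genes that this rule names are not reported here. Members and lists were chosen with earlier results of these data known.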

Additional observations from a re-analysis of the deposited data

How the results depend on the processing

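Of 124 values of 11 results recomputed under other choices, 93 stayed close to the original value and 31 did not. Close means within 1.5 times for the numbers of intervals and genes, within the 95% interval for shares and density, and within 1 SD of the replicates' medians (0.371) for fold enrichment. With overlap of at least 50% of both peaks, the shares of distal peaks with a partner became 50.2% and 63.8% and the density 116 per Mb. With midpoints within 100 bp they became 47.0%, 59.4% and 114 per Mb. With only peaks of 2-fold or more in either list there were 780 intervals, the replicate 1 median was 3.35, all of them (100%) were at least 2 by construction, the replicate 1 share with a partner was 50.0% and the density 101 per Mb. A limit of 500 nt gave 2049 intervals in 1637 genes, a replicate 1 share of 64.0% and 175 per Mb. A limit of 2000 nt gave 502 intervals in 406 genes, 61.0% at least 2-fold in both, a replicate 1 share of 56.1% and 105 per Mb. Requiring every base beyond 1000 nt gave 118 per Mb. With a stop codon window of 100 nt the distal interval was the higher in 43.4% and 46.6% of mRNAs. GGACT was found in 11.1% of windows of 51 nt and 32.6% of windows with 100 nt on either side of the midpoint, and GGAC in 45.8% of windows of 101 nt. Without 1 of the IP replicates, using the peaks of the other alone, there were 1521 to 1901 intervals in 1192 to 1469 genes, at 167 to 193 per Mb, with GGACT in 17.8% to 19% of windows. The replicate 1 median was then 2.65 and the replicate 2 median 2.21, and the distal interval was the higher in 36.9% and 40.2% of mRNAs. By construction, longer windows and the shorter motif GGAC cannot lower the motif share. A stricter overlap likewise cannot raise the share of peaks with a partner. The cause of the other shifts was not tested. Leaving out intervals in exons of other genes, chosen after seeing the data, gave 1180 intervals in 943 genes. No paired analysis was possible because the results come from no test between groups. Without read counts, the precision of a single fold enrichment cannot be given.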

Other observations

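Shared intervals were also found past the annotated 3′ ends of protein-coding genes, where the mRNA models used above end. Of 751 shared intervals outside annotated genes, 63 lay within 1000 nt downstream of a 3′ end (median fold enrichments 3.30 in replicate 1 and 2.59 in replicate 2) and 197 within 5000 nt (3.50 and 2.59), against 212 and 293 within the same distances upstream of a 5′ start (3.42 and 2.56 within 1000 nt). By the lower of both values, the strongest within 5000 nt downstream was 157 nt past the end of Fan1, a DNA repair nuclease, with 5.45 and 6.53. Kcna1, a potassium channel subunit, had one 1024 nt past its end (chr6:126638715-126640031) with 5.25 and 4.96, and Kiss1r, the kisspeptin receptor, one at 1379 nt with 5.26 and 5.25. The peak lists carry no strand, so that an interval cannot be assigned to the upstream gene.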
